A study of Mus musculus with 6 samples.

Results

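Cells given RANKL together with a leaf extract were compared with precursors that received no RANKL, to describe which of RANKL's changes were present when the extract was there and what state the cells had reached. Bone marrow-derived precursors of mouse were kept for 3 days in M-CSF without RANKL (-R), with RANKL (+R), or with RANKL plus LE (R+LE), and 2 RNA libraries per condition were sequenced. M-CSF was at 30 ng/mL in all 3 conditions, RANKL was at 100 ng/mL in +R and R+LE, and LE, a methanolic extract of the leaves of Abeliophyllum distichum, was at 10 μg/mL in R+LE only, so the 2 groups compared here differ by RANKL and LE together. No culture with LE and without RANKL was analysed here. The sample labels give bone marrow of C57BL/6 mice aged 6 to 8 weeks, whereas the methods of the study name ICR males. The labels do not say that the 2 libraries of a condition came from separate cultures or mice, and p-values then measure only the spread between these libraries, which may be technical. Of the 24940 genes in the table, the 11547 with a mean of at least 0.5 RPKM (reads per kilobase of transcript, scaled to the mapped reads of the library) over the 2 -R and the 2 R+LE libraries were tested.

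RANKL binds its receptor RANK on cells of the monocyte and macrophage lineage and, through TRAF adaptor proteins, activates NF-κB, the MAP kinases and calcium signaling. These signals converge on NFATc1, the transcription factor that switches on the genes for matrix digestion, acid secretion, cell fusion and attachment to bone, while repressors such as IRF8 that hold the macrophage program are lost. Precursors also divide before they fuse, and mature osteoclasts are rich in mitochondria.

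The values fell on whole-read steps, which put the mapped reads of the libraries between 29390210 and 34846250, and for a 1 kb transcript 3 reads are worth 0.0861 to 0.1021 RPKM. Rn45s, the ribosomal RNA precursor, took 6.83% and 4.97% of the gene reads in the -R libraries and 11.16% and 13.53% in those of R+LE, and its part in the differences below was not tested beyond the fit that left it out. Defining markers of macrophages (Csf1r, Adgre1, Cd68, Lyz2, Fcgr1 and Mertk) were expressed in every condition, with a summed level of 6390 and 7000 RPKM in the -R libraries and 3940 and 3530 RPKM in R+LE. Markers of T or NK cells, B cells, mast cells and erythroid cells summed to at most 2.03 RPKM in any library. Neutrophil markers summed to 17.5 and 15.6 RPKM in -R and to 2.52 and 0.592 RPKM in R+LE, almost all of it S100a8 and S100a9, and the other 6 of the 8 were under 0.5 RPKM in all groups. Plasmacytoid dendritic cell markers summed to 146 and 160 RPKM in -R and to 39.6 and 40.8 RPKM in R+LE, mostly from Bst2, which interferon also induces. In RNA from whole cultures, fewer cells of a type and less RNA per cell cannot be told apart.

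Many genes differed between cells given RANKL with LE and precursors without RANKL. Cells of R+LE had raised genes of mitosis and low genes of the interferon response, of chemokines and of macrophage identity, as cells of +R did. Many of the macrophage identity genes stood higher in these cells than in +R. In R+LE, levels of Nfatc1, Ctsk, Mmp9 and Acp5 lay between -R and +R, and genes of the respiratory chain were not called against -R. Nqo1, Gsta3 and Col4a1 were higher, and H2-Aa and Abcg1 lower, in R+LE than in either other condition. Genes were called where the adjusted p was below 0.05 and the change at least 2-fold, by limma on log2(RPKM + 0.5) with Benjamini-Hochberg adjustment over all genes tested, and all fold changes below are on this scale, which understates the change of low genes. Of the called genes named below, Bcl2a1d, Bcl6, Cd83, Gclc, Hk2, Il4ra, Itga4, Kmo, Pcna, Pcx, Pfkfb4, Scd1 and Traf2 were near 2-fold and lost the call under at least 1 other setting. Between R+LE and -R, 438 genes were called higher in R+LE (3.79% of the genes tested) and 752 were called lower (6.51%). For the same genes, 685 were called higher (5.93%) and 1060 lower (9.18%) in +R than in -R, and 173 were called higher (1.5%) and 161 lower (1.39%) in R+LE than in +R. These 3 comparisons share libraries, so their values are given side by side and no overlap between them was taken. In R+LE against -R, 95 of the genes called higher rose at least 4-fold and 10 at least 16-fold, and 148 of the genes called lower fell at least 4-fold and 8 at least 16-fold. In the plot of fold change against level, the called genes spread over the whole range of expression.

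**Figure D1:**
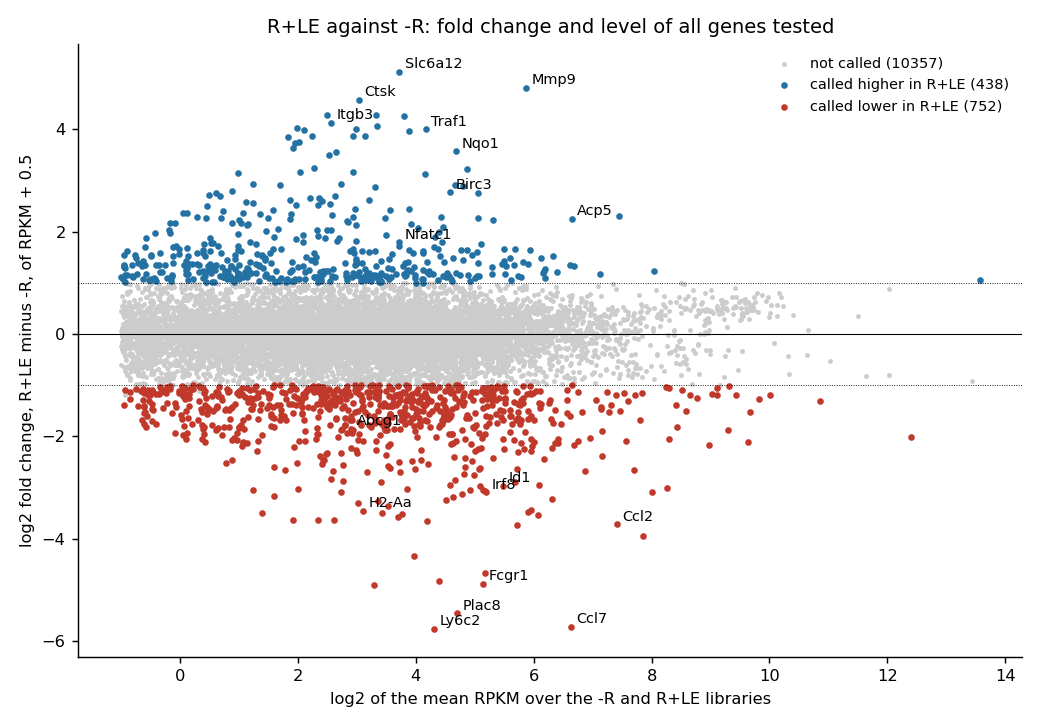
Each point is 1 of the 11547 genes tested, with the log2 of its mean RPKM over the 2 -R and 2 R+LE libraries on the x axis and the log2 fold change of R+LE minus -R on the y axis. Blue points are the 438 genes called higher in R+LE, red points the 752 called lower, and dotted lines mark a 2-fold change. Slc6a12, Mmp9 and Ctsk lie at the top and Ly6c2, Ccl7 and Plac8 at the bottom.

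The 12 largest rises in R+LE against -R were those of Slc6a12, Mmp9, Ctsk, Mycl, Htra1, Col4a2, Itgb3, Col4a1, Car2, Traf1, Dmkn and Ndrg2. Slc6a12 (chr6:121343076-121365773 in mm10), which encodes a betaine and GABA transporter, stood at 0.179 and 0.353 RPKM in -R and at 26.5 and 25.6 RPKM in R+LE. Its level in +R was 39.9 and 29.7 RPKM, and the difference between R+LE and +R (-0.4 ± 0.16 on the log2 scale, SE) missed the threshold, with a limma adjusted p of 0.154. Mycl, the L-Myc transcription factor, overlapped between the conditions with RANKL and was at 0.041 and 0.157 RPKM in -R, at 12.8 and 9.51 RPKM in +R and at 11.6 and 10.7 RPKM in R+LE. Its log2 fold change was 4.29 ± 0.17 (SE) in R+LE against -R and 4.28 ± 0.17 in +R against -R. Htra1, a secreted serine protease, rose from 0.487 and 0.566 RPKM in -R to 20.9 and 18.1 RPKM in R+LE. In each of these 3 genes every library with RANKL was above every library without it. The libraries with RANKL all lay on 1 side of both -R libraries for 54.8% of the genes tested, the R+LE and -R libraries did not overlap for 65.4%, and no 2 of the 3 conditions overlapped for 31.4%, so that groups apart are common in this table.

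Among these 12 genes, 4 were highest in R+LE. Col4a1 and Col4a2 encode the chains of type IV collagen, the collagen of basement membranes, and lie head to head on mouse chromosome 8. Col4a2 stood at 1.14 and 0.731 RPKM in -R, at 9.51 and 7.81 in +R and at 24.2 and 29.7 in R+LE, and Col4a1 stood at 0.7 and 0.687, 7.12 and 6.01 and 17.3 and 21.9 RPKM in the same order. The 3 conditions did not overlap for either gene, and R+LE was called higher than +R for both (log2 fold changes 1.58 ± 0.17 and 1.5 ± 0.16, SE). Markers of stromal cells summed to 16.5 and 14.8 RPKM in -R and to 7.68 and 8.68 RPKM in R+LE. Markers of endothelial cells summed to 2.29 and 2.39 RPKM in -R and to 0.717 and 0.65 RPKM in R+LE. The part of such cells in the collagen values was not tested. Dmkn was at 9.58 and 5.39 RPKM in +R and 15.9 and 14.7 RPKM in R+LE, and Ndrg2 was at 3.697 and 1.14 RPKM in +R and 8.09 and 8.94 RPKM in R+LE. Both were under 1 RPKM in each -R library, and the 2 +R libraries of Ndrg2 lay far apart.

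The 12 largest falls were those of Ly6c2, Ccl7, Plac8, Ly6c1, Fcgr1, Ms4a4c, Rgs1, Slfn1, Ccl6, Hal, Ccl2 and Plk2. Ly6c2 (chr15:75108161-75111971 in mm10), a surface protein of inflammatory monocytes, went from 37.5 and 41.3 RPKM in -R to 0.31 and 0.161 RPKM in R+LE, a log2 fold change of -5.77 ± 0.17 (SE, limma adjusted p = 3.25e-12). Its neighbor Ly6c1, which is close in sequence and may share reads with it, went from 19.3 and 19.7 to 0.376 and 0 RPKM. Plac8 went from 50.8 and 51.4 to 0.782 and 0.572 RPKM. In the heat map of these 24 genes, the falls are seen in +R and R+LE alike. Hal, histidine ammonia-lyase, was the 1 gene of the 12 falls that was called different between R+LE and +R, with 99.1 and 98.3 RPKM in -R, at 1.89 and 2.59 RPKM in +R and at 6.87 and 7.09 RPKM in R+LE.

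**Figure D2:**
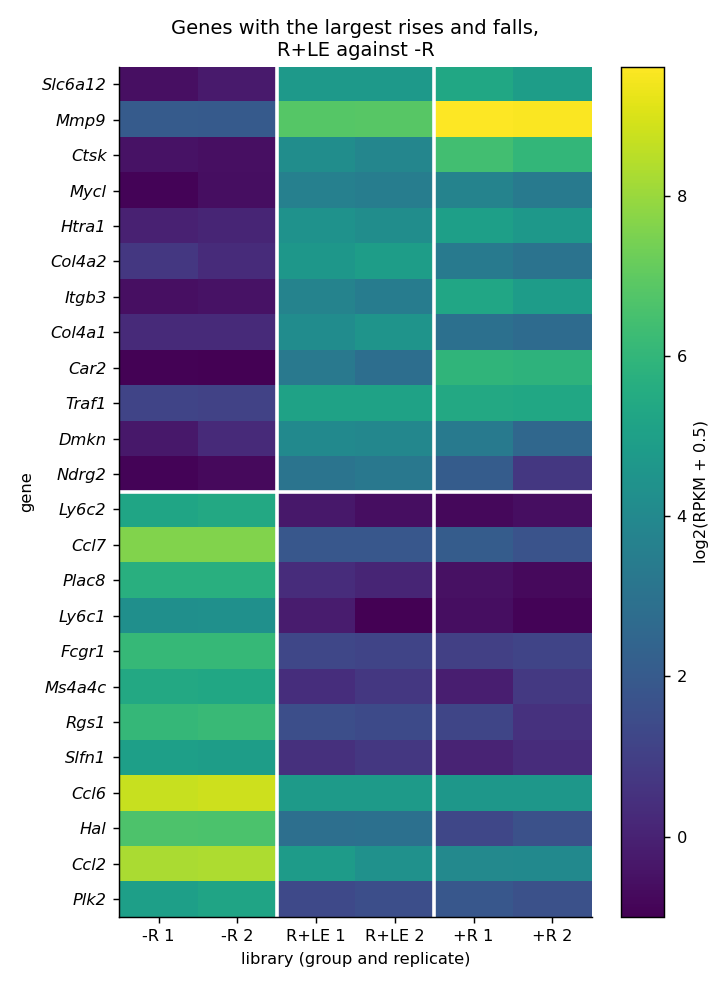
The color gives log2(RPKM + 0.5) of each of the 12 genes with the largest rise (top) and the 12 with the largest fall (bottom) in R+LE against -R, in the 2 libraries of each condition. The R+LE columns are near the +R columns for most rows, whereas Mmp9, Ctsk, Itgb3 and Car2 are lower, and Col4a1, Col4a2 and Ndrg2 higher, in R+LE than in +R.

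Most genes through which RANK signals were not called between R+LE and -R, whereas several that NF-κB switches on were called higher in R+LE. Tnfrsf11a, which encodes RANK itself, was at 60.1 and 67.8 RPKM in -R and 68.4 and 61.8 RPKM in R+LE, and the 2 groups overlapped. Of 26 tested genes that transduce the RANKL signal, 3 were called higher and 2 lower in R+LE against -R, with a median log2 change of -0.12 against -0.02 over all genes tested. At an adjusted p below 0.05 and any fold, 15.4% of the 26 were higher and 26.9% lower, beside 14.9% and 19.3% of all genes. Without R+LE replicate 1, 4 were called lower. The 3 that rose were the TRAF adaptors Traf1, Traf2 and Traf3. Traf1 stood at 1.75 and 1.605 RPKM in -R and 34.6 and 34.04 RPKM in R+LE, a log2 fold change of 4.0 ± 0.13 (SE, limma adjusted p = 1.11e-11), beside 41.8 and 38.97 RPKM in +R. The 2 that fell were the scaffold Gab2 (log2 fold change -1.27 ± 0.14) and Trem2 (-1.14 ± 0.15), a receptor that signals through an ITAM adaptor.

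Of 26 tested NF-κB target genes, 8 were called higher and 5 lower in R+LE against -R, with a median log2 change of 0.44, and 11 were called higher and 3 lower in +R against -R, with a median of 0.66. Those that rose with LE included the noncanonical subunits Nfkb2 and Relb, the inhibitors Nfkbia and Nfkbie that bind NF-κB, the ubiquitin ligase Birc3, and Tnip1 and Icam1. Traf1, counted among the transducers above, was another, and Nfkb2 and Relb are counted again among the transcription factors below. Birc3 stood at 5.16 and 6.38 RPKM in -R, at 51.8 and 47.7 RPKM in +R and at 41.9 and 42.2 RPKM in R+LE. Nfkb2 stood at 11.4 and 10.8 RPKM in -R, at 68.9 and 75.3 RPKM in +R and at 54.2 and 56.4 RPKM in R+LE. Every library with RANKL was above both -R libraries for these 2 genes, and the difference between R+LE and +R missed the threshold for both (limma adjusted p = 0.365 for Birc3 and 0.0993 for Nfkb2). Nfkbia was spread widely, with 11.2 and 13.5 RPKM in -R and 28.3 and 55.2 RPKM in R+LE. The 5 genes that fell were Ccl5, Ier3, Cd83 and the near-identical Bcl2a1b and Bcl2a1d. Rela, the canonical NF-κB subunit, was at 22.5 and 23.5 RPKM in -R and 19.99 and 21.1 RPKM in R+LE (log2 fold change -0.16 ± 0.14, SE), which is not a call.

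Among the reference promoters given for the genes tested, the κB letters GGGANTTTC, searched on both strands in the 250 bases before and 50 bases after each start, were in 1.19% of 8894 promoters and in 2 of the 20 NF-κB target genes that had one. Those were Nfkb2 and Nfkbia, whose RefSeq promoters (GRCm38.p6) are shown because both genes rose in R+LE, with the matches in capitals. The first, on the plus strand, is at chr19:46305445-46305744, and the second, on the minus strand, at chr12:55492598-55492897. A match is a description of the letters and not a site shown to be bound.
Nfkb2: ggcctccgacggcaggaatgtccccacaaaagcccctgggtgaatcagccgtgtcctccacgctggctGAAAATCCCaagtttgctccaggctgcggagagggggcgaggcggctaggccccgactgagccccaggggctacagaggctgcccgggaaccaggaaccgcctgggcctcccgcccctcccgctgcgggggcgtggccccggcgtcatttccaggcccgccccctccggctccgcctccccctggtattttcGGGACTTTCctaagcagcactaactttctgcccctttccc
Nfkbia: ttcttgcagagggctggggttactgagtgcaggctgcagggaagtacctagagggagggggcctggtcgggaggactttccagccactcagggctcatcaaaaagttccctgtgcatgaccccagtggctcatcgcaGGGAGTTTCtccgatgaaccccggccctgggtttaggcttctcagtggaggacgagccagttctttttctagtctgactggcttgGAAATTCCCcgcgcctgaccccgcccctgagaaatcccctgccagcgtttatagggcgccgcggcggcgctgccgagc

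Transcription factors of the osteoclast moved in both directions. Of 26 tested factors, 6 were called higher (Nfatc1, Jdp2, Ppargc1b, Nfkb2, Relb and Tfec) and 3 lower (Jun, Fosb and Ets2) in R+LE against -R, beside 9 higher and 4 lower in +R against -R. Nfatc1, the master regulator, was at 5.601 and 5.62 RPKM in -R, at 51.1 and 52.4 RPKM in +R and at 20.7 and 20.6 RPKM in R+LE. The 3 groups did not overlap, and Nfatc1 was called both higher in R+LE than in -R (log2 fold change 1.79 ± 0.13, SE, limma adjusted p = 4.46e-08) and lower in R+LE than in +R (-1.31 ± 0.13, adjusted p = 8.04e-06). Jdp2, an AP-1 partner needed for osteoclast formation, took the same order at 6.05 and 4.56, 188 and 196 and 57.99 and 48.7 RPKM, and so did Ppargc1b, a coactivator of mitochondrial genes, at 0.719 and 0.922, 9.29 and 11.3 and 2.31 and 3.35 RPKM. Tfec, a relative of MITF, reached 8.27 and 7.05 RPKM in R+LE and 7.73 and 6.68 RPKM in +R from 2.903 and 3.36 RPKM in -R.

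Prdm1, which encodes the repressor Blimp1, was at 0.995 and 1.25 RPKM in -R, at 12.7 and 11.9 RPKM in +R and at 2.51 and 2.26 RPKM in R+LE. All R+LE libraries were above all -R libraries, but the log2 fold change of 0.83 ± 0.15 (SE) was under the 2-fold threshold, and it passed at 1.03 with a pseudocount of 0.1. Fosl2, an AP-1 subunit, was at 14.04 and 14.9 RPKM in -R, at 61.6 and 60.5 RPKM in +R and at 20.1 and 19.5 RPKM in R+LE, a log2 fold change of 0.44 ± 0.13 (SE) in R+LE against -R and 2.04 ± 0.13 in +R against -R. Fos (log2 fold change 0.21 ± 0.15), Mitf (-0.31 ± 0.13) and Esrra (-0.05 ± 0.13) were not called in R+LE against -R. Fosb, an AP-1 subunit of the immediate early class, was near the floor in every library with RANKL.

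Among 20 tested repressors of osteoclast differentiation, 7 were called lower and 1 higher in R+LE against -R, with a median log2 change of -0.64, beside 9 lower and 2 higher in +R against -R, with a median of -0.93. In R+LE against +R, 3 were called higher and 1 lower, with a median of 0.36. At an adjusted p below 0.05 and any fold, 10 were higher and 4 lower (50% and 20%, beside 5.2% and 6.3% of all genes). Irf8, which holds the macrophage program, stood at 66.9 and 65.2 RPKM in -R, at 4.07 and 5.21 RPKM in +R and at 7.88 and 6.75 RPKM in R+LE. Both groups with RANKL were far below -R, and the difference between them was under 2-fold (log2 fold change 0.61 ± 0.15, SE). Id1, a dominant-negative helix-loop-helix protein, went from 85.1 and 73.1 RPKM in -R to 12.02 and 7.77 RPKM in R+LE, above 4.13 and 3.43 RPKM in +R, and this last difference was called (log2 fold change 1.25 ± 0.18, SE). Id2, Bcl6, Tsc22d3 and the inhibitory receptor Lilrb4a fell as well. Id3, at 63.4 and 60.6 RPKM in -R and 36.9 and 27.1 RPKM in R+LE, missed the 2-fold threshold with LE (log2 fold change -0.96 ± 0.17, SE) and was called lower without it (-2.05 ± 0.17). Without R+LE replicate 1 it passed, at -1.18. The 1 listed gene that rose was Cd200, a ligand of an inhibitory receptor that osteoclasts themselves express. Whether it acts as a repressor in these cells was not tested.

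The genes that osteoclasts use to fuse and resorb bone were reached in part. Of 24 tested genes of osteoclast function, 15 were called higher and 1 lower in R+LE against -R, with a median log2 change of 2.15, beside 17 higher and 1 lower in +R against -R, with a median of 3.98. Only 16 of the 24 averaged at least 0.5 RPKM in both -R and R+LE. Others, Ctsk and Itgb3 among them, passed the filter through R+LE alone, which favors calls of higher genes. With the filter at 1 RPKM, 12 were called higher and 1 lower, with a median of 2.25. In R+LE against +R, 18 of the 24 were called lower and none higher. Ctsk (chr3:95499210-95509387 in mm10), the protease that digests bone collagen, was at 0.216 and 0.182 RPKM in -R, at 18.2 and 14.3 RPKM in R+LE and at 83.3 and 64.3 RPKM in +R. Mmp9, a gelatinase, was at 3.66 and 3.47 RPKM in -R, at 111 and 117 RPKM in R+LE and at 782 and 758 RPKM in +R. Acp5, the tartrate-resistant acid phosphatase used to stain osteoclasts, was at 33.6 and 34.8 RPKM in -R, at 185 and 147 RPKM in R+LE and at 964 and 795 RPKM in +R. For each of these 3 genes R+LE lay between the other conditions and apart from both, with log2 fold changes against -R of 4.57 ± 0.16, 4.81 ± 0.14 and 2.25 ± 0.17 (SE).

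Several genes of fusion and attachment took the same order. Dcstamp and Ocstamp, the membrane proteins needed for fusion, reached 14.6 and 11.6 RPKM and 10.6 and 7.84 RPKM in R+LE from 2.56 and 2.66 RPKM and 0.209 and 0.118 RPKM in -R. Itgb3, the β3 chain of the vitronectin receptor, was at 0.171 and 0.214 RPKM in -R, at 12.9 and 10.3 RPKM in R+LE and at 38.1 and 28.4 RPKM in +R. Src, the kinase of the ruffled border and podosomes, was at 1.32 and 1.37 RPKM in -R, at 9.79 and 10.8 RPKM in R+LE and at 37.2 and 32.9 RPKM in +R. Calcr, the calcitonin receptor, and Oscar, an immune receptor that costimulates osteoclasts, had no reads in either -R library. In R+LE they had 145 and 84 reads and 179 and 138 reads, which is at least 39.4-fold and at least 54.6-fold higher than the 3 reads per library that a count of 0 allows. Car2, carbonic anhydrase II, had 1 and 0 reads in -R and 491 and 341 reads in R+LE.

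The genes that acidify the resorption pit did not all follow. Atp6v0d2, the proton pump subunit induced in osteoclasts, rose from 2.93 and 3.57 RPKM in -R to 36.5 and 28.5 RPKM in R+LE and stood at 176 and 147 RPKM in +R. Slc4a2, the bicarbonate exchanger, was at 26.2 and 25.8 RPKM in -R, at 26.3 and 24.7 RPKM in R+LE and at 61.8 and 62.2 RPKM in +R. The chloride transporter Clcn7 was at 14.6 and 16.7 RPKM in -R and 14.1 and 13.6 RPKM in R+LE, and the pump subunit Tcirg1 was at 145 and 122 and 113 and 99.3 RPKM. None of these last 3 was called in R+LE against -R, with log2 fold changes of -0.03 ± 0.14, -0.17 ± 0.14 and -0.33 ± 0.16 (SE). Plekhm1, a regulator of lysosome transport, was the 1 member that fell, to 8.63 and 10.02 RPKM from 33.4 and 33.1 RPKM, and it was low in +R too at 13.3 and 12.5 RPKM. Of 17 other tested subunits of the proton pump, 1 was called lower (Atp6v0a1) and none higher in R+LE against -R, with a median log2 change of -0.24, beside 1 higher and 1 lower in +R against -R, with a median of 0.40. In R+LE against +R, 2 were called lower and none higher, with a median of -0.56. At an adjusted p below 0.05 and any fold, 10 were lower (58.8%, beside 6.3% of all genes) and none higher. Of 26 tested integrins and podosome genes, 3 were called higher in R+LE against -R, Itgb3, Itga4 and Myo10, and 2 lower, Itgb5 and Plek. Of all genes, 3.79% were called higher and 6.51% lower. The median log2 change of the 26 was -0.03, beside 8 called higher, 3 lower and a median of 0.05 in +R against -R.

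**Figure D3:**
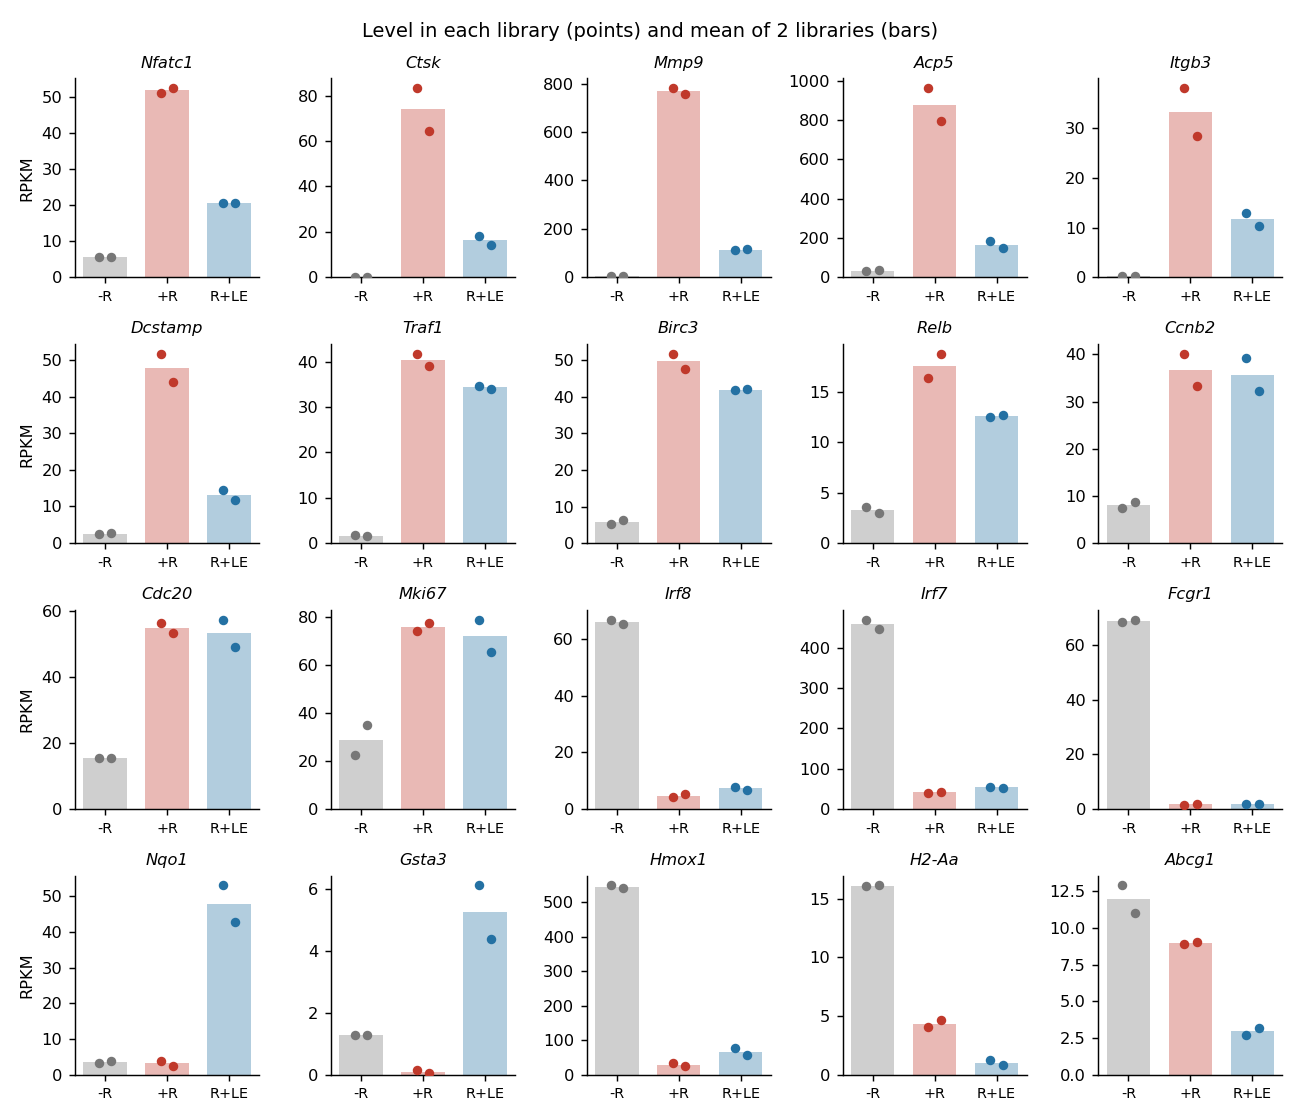
Each panel shows RPKM of 1 gene from 0 on a linear axis, with points for the 2 libraries and a bar for their mean in -R (gray), +R (red) and R+LE (blue). The osteoclast genes of the top row lie between -R and +R in R+LE, Traf1, Birc3, Ccnb2, Cdc20, Irf8, Irf7 and Fcgr1 are near their +R level, and Nqo1, Gsta3, H2-Aa and Abcg1 are at levels that neither other condition shows.

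Genes of mitosis were raised in both conditions with RANKL. Of 31 tested genes of mitosis, 20 were called higher and none lower in R+LE against -R, with log2 fold changes between 0.61 and 2.08 around a median of 1.16, and all 31 had an adjusted p below 0.05, as did 14.9% of all genes in this direction. In +R against -R, 21 were called higher, with a median of 1.18, and in R+LE against +R none of the 31 was called and none had an adjusted p below 0.05. Ccnb2, cyclin B2, was at 7.38 and 8.703 RPKM in -R, at 40.1 and 33.2 RPKM in +R and at 39.2 and 32.3 RPKM in R+LE. Cdc20, which activates the anaphase-promoting complex, was at 15.4 and 15.3 RPKM in -R, at 56.5 and 53.4 RPKM in +R and at 57.4 and 49.03 RPKM in R+LE. Mki67, the Ki-67 antigen, was at 22.5 and 34.9 RPKM in -R, at 74.1 and 77.8 RPKM in +R and at 79.05 and 65.6 RPKM in R+LE. The 2 groups with RANKL overlapped for each of these 3 genes, and both were above -R.

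Genes of DNA replication behaved otherwise. Of 33 tested, 1 was called lower and none higher in R+LE against -R, with a median log2 change of 0.21, and 7 had an adjusted p below 0.05 and a higher value in R+LE by under 2-fold, which is 21.2% of them beside 14.9% of all genes. Rrm2, the ribonucleotide reductase subunit, had the largest of these differences, at 35.3 and 33.4 RPKM in -R and 59.5 and 49.2 RPKM in R+LE. Pcna, the sliding clamp of the replication fork, was the 1 that fell, at 411 and 407 RPKM in -R, at 176 and 148 RPKM in +R and at 217 and 182 RPKM in R+LE. Its log2 fold change of -1.04 ± 0.17 (SE) was close to the threshold and lost the call under 3 scalings and without 1 R+LE library. Among 17 tested brakes of the cell cycle, Cdkn2a rose, from 0.368 and 0.311 to 2.26 and 2.38 RPKM, and Gadd45a and Gadd45b fell. The median log2 change of the 17 was -0.05. At an adjusted p below 0.05 and any fold, 11.8% of them were higher and 23.5% lower, beside 14.9% and 19.3% of all genes. The E2F letters TTTCCCGC were in 5 of the 27 replication promoters given, in none of the 26 mitosis promoters and in 2.52% of all promoters.

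**Figure D4:**
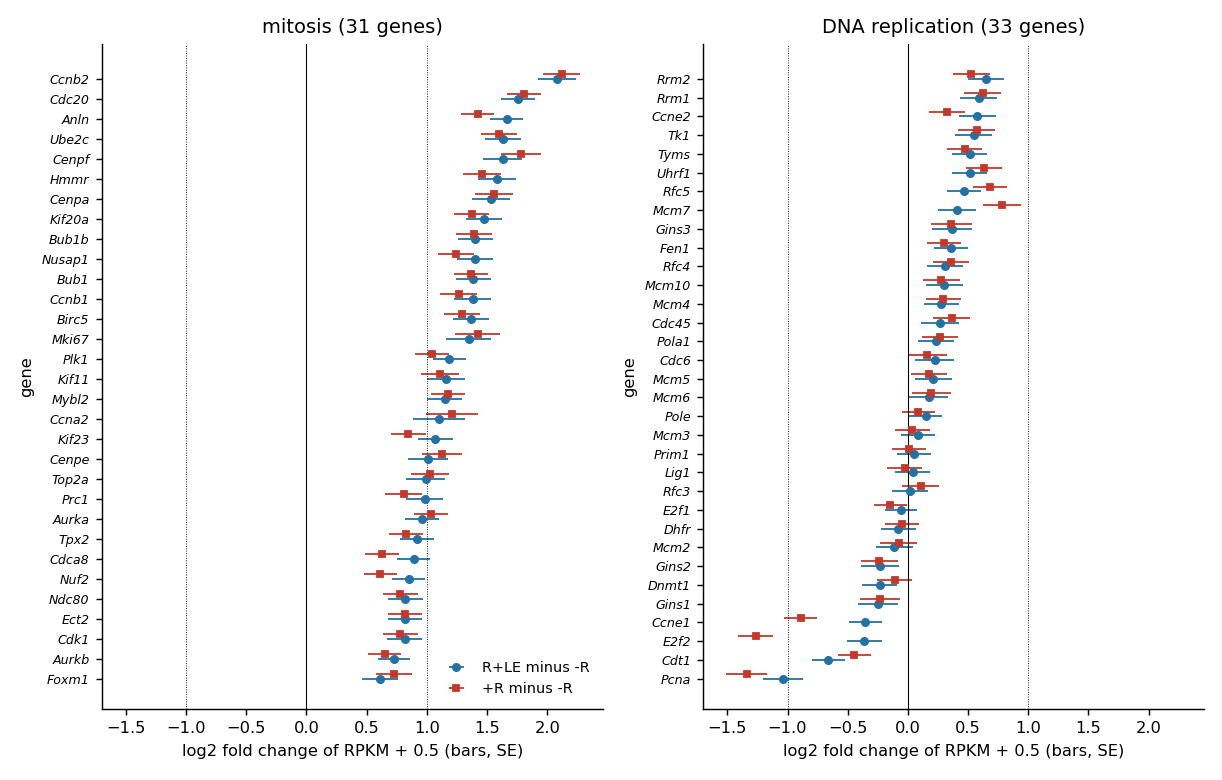
Log2 fold changes with their SE are shown for the 31 mitosis genes (left) and the 33 replication genes (right), R+LE minus -R as blue circles and +R minus -R as red squares, with dotted lines at a 2-fold change. All mitosis genes lie to the right of 0 in both comparisons, whereas the replication genes lie on both sides of it.

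Genes of macrophage identity were low in both conditions with RANKL. Of 27 tested, 20 were called lower and none higher in R+LE against -R, with a median log2 change of -2.06, beside 22 lower and a median of -2.14 in +R against -R. In R+LE against +R, 4 were called higher and none lower, with a median of 0.53. At an adjusted p below 0.05 and any fold, 15 of the 27 were higher (55.6%, beside 5.2% of all genes) and 2 lower in R+LE than in +R. Fcgr1, the high-affinity IgG receptor, was at 68.3 and 69.2 RPKM in -R, at 1.51 and 1.77 RPKM in +R and at 1.93 and 1.77 RPKM in R+LE. Siglec1, a sialic acid receptor, was at 111 and 138 RPKM in -R, at 5.29 and 7.19 RPKM in +R and at 8.33 and 12.2 RPKM in R+LE. Both groups with RANKL were far below -R for these 2 genes. C1qb, Apoe and Mertk, which serve the clearance of dying cells, fell by like amounts (log2 fold changes -2.63 ± 0.15, -2.66 ± 0.16 and -2.08 ± 0.16, SE). Cd36, the scavenger receptor for oxidized lipid, was at 468 and 541 RPKM in -R, at 25.5 and 21.4 RPKM in +R and at 139.9 and 103 RPKM in R+LE, so that its fall with LE was shallower, and it was called higher in R+LE than in +R (log2 fold change 2.34 ± 0.18, SE), as were C3ar1, C5ar1 and Fcgr3. Adgre1, the F4/80 antigen, was at 172 and 196 RPKM in -R and 163 and 133 RPKM in R+LE, and the change was not called.

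Many genes of inflammatory monocytes and chemokines were low as well. Of 20 tested monocyte genes, 10 were called lower and 1 higher in R+LE against -R, with a median log2 change of -0.97, beside 15 lower and 1 higher in +R against -R, with a median of -1.83. In R+LE against +R, 3 of the 20 were called higher and none lower. At an adjusted p below 0.05 and any fold, 40% were higher and 5% lower in R+LE than in +R, beside 5.2% and 6.3% of all genes. Those that fell in R+LE against -R included Ly6c2, Plac8, the chemokine receptor Ccr2 (38.7 and 51.4 RPKM in -R and 6.22 and 5.34 in R+LE) and the clotting factor chain F13a1. Vcan, the matrix proteoglycan versican, went the other way, from 1.19 and 1.47 RPKM in -R to 26.5 and 29.5 RPKM in R+LE. Of 16 tested CC and CXC chemokines, 10 were called lower and 1 higher, with a median of -1.96 that ran from -2.73 to -1.03 over the other settings. Ccl2 and Ccl7, which attract monocytes through CCR2, went from 311 and 321 RPKM and 195 and 194 RPKM in -R to 27.4 and 20.2 RPKM and 3.19 and 3.19 RPKM in R+LE. The 1 chemokine that rose was Cxcl10, at 6.07 and 5.09 RPKM in -R, at 31.1 and 29.2 RPKM in +R and at 44.9 and 45.5 RPKM in R+LE. Ccr1, a chemokine receptor, was at 23.7 and 23.6 RPKM in -R, at 36.1 and 26.02 RPKM in +R and at 10.7 and 8.25 RPKM in R+LE, and it fell against both (log2 fold change -1.29 ± 0.17 against -R, SE). The megakaryocyte markers, of which Pf4 was the 1 gene expressed, summed to 119 and 124 RPKM in -R and 18.4 and 12.8 RPKM in R+LE.

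Genes of the interferon response were low in both conditions with RANKL. Of 31 tested genes, 26 were called lower and 1 higher in R+LE against -R, with a median log2 change of -1.51, beside 27 lower and 1 higher in +R against -R, with a median of -1.77, and none was called in R+LE against +R. Irf7, the transcription factor that amplifies the response, was at 469 and 446 RPKM in -R, at 39.98 and 42.4 RPKM in +R and at 55.4 and 51.4 RPKM in R+LE. Zbp1, a sensor of Z-form nucleic acid, was at 49.4 and 40.5 RPKM in -R, at 4.46 and 6.05 RPKM in +R and at 4.25 and 4.703 RPKM in R+LE. Every library with RANKL was below both -R libraries for these 2 genes. Factors that carry the signal to the nucleus fell as well, with log2 fold changes of -1.8 ± 0.16 for Stat2 and -1.13 ± 0.14 for Irf9 (SE). The 1 that rose, Cxcl10, is also a target of NF-κB.

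The letters GAAANNGAA, the core of the interferon-stimulated response element, were in 8.86% of the 8894 promoters and in 14 of the 23 interferon genes that had one. The promoters of Isg15 (minus strand, chr4:156200769-156201068) and Ifit3 (plus strand, chr19:34583279-34583578) are shown, with their matches in capitals, because each holds 3 matches and both genes fell. Isg15, a ubiquitin-like protein, was at 53.3 and 60.1 RPKM in -R and 12.5 and 10.96 RPKM in R+LE, and Ifit3, which binds other IFIT proteins on foreign RNA, was at 22.8 and 24.05 and 2.89 and 3.56 RPKM. Ifit3 is close in sequence to Ifit3b and may share reads with it.
Isg15: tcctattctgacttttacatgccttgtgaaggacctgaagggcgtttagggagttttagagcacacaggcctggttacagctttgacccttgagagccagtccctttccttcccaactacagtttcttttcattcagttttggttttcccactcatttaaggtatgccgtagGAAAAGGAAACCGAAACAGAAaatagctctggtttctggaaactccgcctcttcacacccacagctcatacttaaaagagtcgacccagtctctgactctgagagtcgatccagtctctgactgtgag
Ifit3: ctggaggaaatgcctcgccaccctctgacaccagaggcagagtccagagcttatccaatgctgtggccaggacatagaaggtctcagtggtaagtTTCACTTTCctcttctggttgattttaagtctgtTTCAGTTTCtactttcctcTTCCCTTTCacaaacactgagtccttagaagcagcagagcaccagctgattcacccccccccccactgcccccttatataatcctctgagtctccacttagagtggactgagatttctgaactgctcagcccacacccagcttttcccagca

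**Figure D5:**
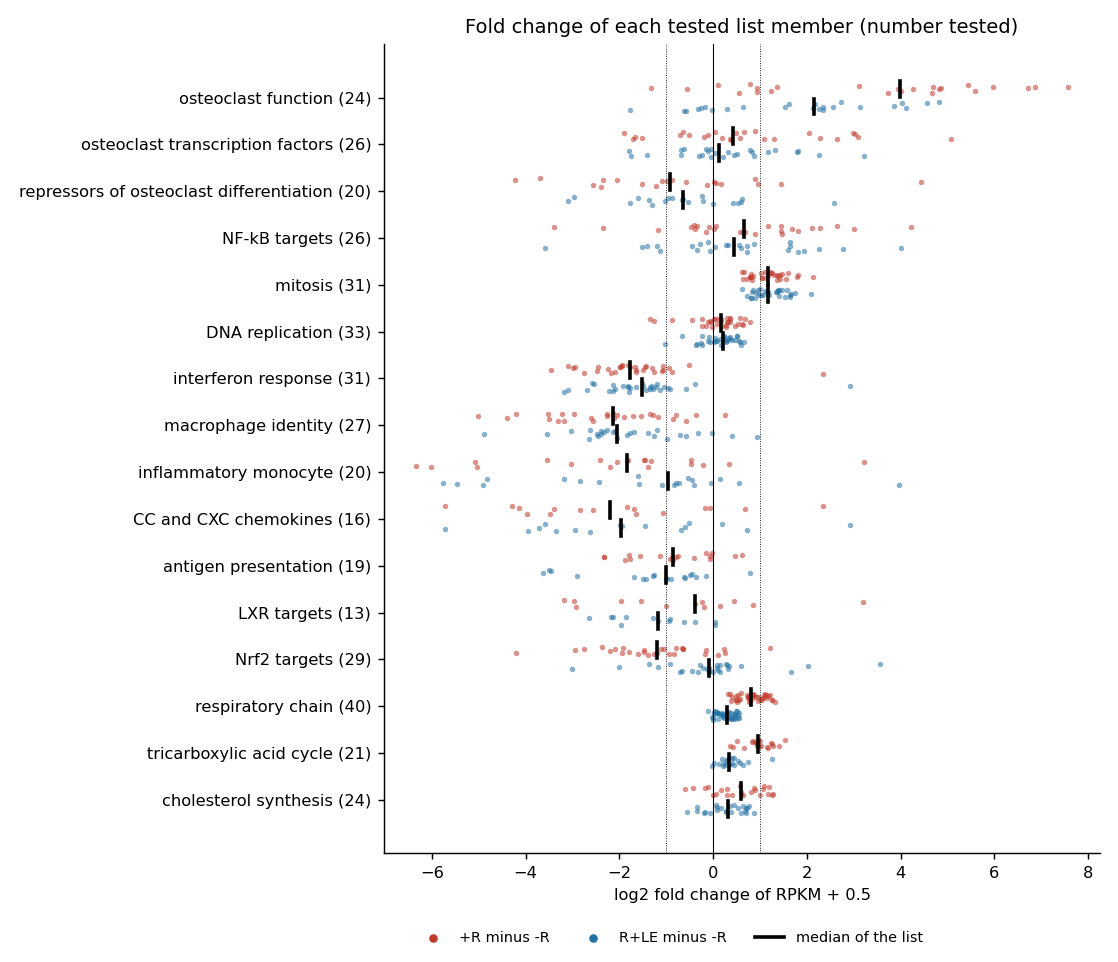
Each point is the log2 fold change of 1 tested member of a gene list, red for +R minus -R and blue for R+LE minus -R, with a black bar at the median and dotted lines at a 2-fold change. The medians of mitosis (1.18 and 1.16) and of the interferon response (-1.77 and -1.51) are close in both comparisons, whereas those of osteoclast function (3.98 and 2.15), Nrf2 targets (-1.2 and -0.09) and the respiratory chain (0.82 and 0.28) are apart.

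Antigen presentation genes fell, and those of MHC class II were lower with LE than in either other condition. Of 19 tested, 10 were called lower and none higher in R+LE against -R, with a median log2 change of -1.01, beside 7 lower and a median of -0.86 in +R against -R. H2-Aa, an MHC class II chain, was at 16.1 and 16.1 RPKM in -R, at 4.05 and 4.69 RPKM in +R and at 1.22 and 0.835 RPKM in R+LE. Cd74, the invariant chain that guides class II molecules, was at 91.4 and 90.2 RPKM in -R, at 30.2 and 31.01 RPKM in +R and at 13.5 and 10.2 RPKM in R+LE. The 3 conditions did not overlap for these 2 genes. H2-Ab1 and H2-Eb1 took the same order and R+LE was likewise called lower than +R for them (log2 fold changes -1.3 ± 0.19 and -1.16 ± 0.17, SE). B-cell markers, which belong to another cell type that carries MHC class II, summed to 2.03 and 1.73 RPKM in -R and to 0.18 and 0.218 RPKM in R+LE, and their part in the class II values was not tested. Of class I, B2m fell from 1246 and 1321 to 561 and 509 RPKM, and the peptide transporter Tap1 fell from 34.2 and 29.1 to 12.4 and 12.9 RPKM.

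Targets of liver X receptors, among them exporters of cholesterol, were in part low with LE. Of 13 tested targets, which include the desaturases Scd1 and Scd2, 7 were called lower and none higher in R+LE against -R, with a median log2 change of -1.17, beside 5 lower and 1 higher in +R against -R, with a median of -0.39. Abcg1, a cholesterol exporter, was at 12.9 and 11.03 RPKM in -R, at 8.88 and 9.08 RPKM in +R and at 2.74 and 3.16 RPKM in R+LE. Abca1, the exporter that loads apolipoprotein A-I, was at 16.3 and 22.1 RPKM in -R, at 8.02 and 10.7 RPKM in +R and at 4.04 and 3.54 RPKM in R+LE. R+LE was the lowest condition for both and was called lower than each of the others. Scd2, a stearoyl-CoA desaturase, rose with RANKL alone from 5.62 and 5.82 RPKM to 53.5 and 58.8 RPKM, and stood at 2.54 and 3.09 RPKM in R+LE, which is under 2-fold below -R (log2 fold change -0.91 ± 0.14, SE). Its relative Scd1 was at 1.08 and 1.397 RPKM in -R, at 2.51 and 2.74 RPKM in +R and at 0.243 and 0.292 RPKM in R+LE.

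Most targets of Nrf2, the transcription factor of the antioxidant response, were not called between R+LE and -R. Of 29 tested, 3 were called higher and 4 lower in R+LE against -R, with a median log2 change of -0.09, beside 1 higher and 17 lower and a median of -1.2 in +R against -R. At an adjusted p below 0.05 and any fold, 10.3% were higher and 27.6% lower in R+LE than in -R, beside 14.9% and 19.3% of all genes. The listed targets summed to 27150 and 27270 RPKM in -R, 6862 and 6135 RPKM in +R and 14500 and 11780 RPKM in R+LE. In R+LE against +R, 15 were called higher and none lower. Gclm, the regulatory subunit of glutathione synthesis, was at 105 and 104 RPKM in -R, at 14.9 and 15.2 RPKM in +R and at 111 and 81.99 RPKM in R+LE. The R+LE libraries of Gclm overlapped those of -R, whereas its catalytic partner Gclc, at 45.8 and 60.3 RPKM in -R, at 11.7 and 10.4 RPKM in +R and at 25.3 and 21.1 RPKM in R+LE, lay between the other conditions. Hmox1, heme oxygenase, was at 549 and 542 RPKM in -R, at 33.96 and 25.1 RPKM in +R and at 76.5 and 58.4 RPKM in R+LE, so that most of its fall was present with LE, and the ferritin chain Fth1 fell alike (log2 fold change -2.01 ± 0.23, SE).

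The 3 Nrf2 targets that were called higher in R+LE than in -R were Nqo1, Gsta3 and Ephx1, all of which encode enzymes that detoxify foreign compounds. Nqo1 (chr8:107388225-107403205 in mm10), a quinone reductase, was at 3.26 and 3.87 RPKM in -R, at 3.84 and 2.51 RPKM in +R and at 52.97 and 42.7 RPKM in R+LE. The first 2 conditions overlapped, and R+LE was above both, with log2 fold changes of 3.57 ± 0.18 against -R and 3.73 ± 0.18 against +R (SE). Gsta3, a glutathione transferase of a family with near-identical members, was at 1.29 and 1.303 RPKM in -R, at 0.143 and 0.048 RPKM in +R and at 6.12 and 4.399 RPKM in R+LE. Ephx1, an epoxide hydrolase, was at 2.07 and 1.76 RPKM in -R, at 4.58 and 5.58 RPKM in +R and at 10.2 and 8.48 RPKM in R+LE. Nqo1 is also a target of the aryl hydrocarbon receptor. Of 6 tested targets of that receptor, 3 were called higher in R+LE against -R, Nqo1, Ahrr and Lpcat2, and none lower, beside 3.79% and 6.51% of all genes. In +R against -R, 1 of the 6 was called higher, and in R+LE against +R 2 were. Another 4 listed targets, Cyp1a1 and Cyp1a2 among them, were below the filter. The other genes with the largest rises against both conditions were Adh7, an alcohol dehydrogenase, Mgst2, a microsomal glutathione transferase, and Slc39a4, a zinc importer. Mgst2 was at 1.14 and 1.399 RPKM in -R, at 2.25 and 1.81 RPKM in +R and at 13.3 and 8.89 RPKM in R+LE, and Adh7 was at 0.165 and 0.111 RPKM in -R, at 0.158 and 0.126 RPKM in +R and at 2.83 and 2.32 RPKM in R+LE. The genes lowest against both were H2-Aa, Abcg1, Cd74 and Ccr3, a chemokine receptor at 2.57 and 3.16 RPKM in -R and 1.04 and 0.482 RPKM in R+LE, and since both comparisons chose these 8 genes their values are a description.

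The core letters of the antioxidant response element, TGACNNNGC, were in 17.2% of the 8894 promoters and in 9 of the 23 Nrf2 targets that had one. The promoters of Gsta3 (plus strand, chr1:21240335-21240634), which rose above -R, and of Gclm (plus strand, chr3:122245307-122245606), which did not, are shown with the match in capitals.
Gsta3: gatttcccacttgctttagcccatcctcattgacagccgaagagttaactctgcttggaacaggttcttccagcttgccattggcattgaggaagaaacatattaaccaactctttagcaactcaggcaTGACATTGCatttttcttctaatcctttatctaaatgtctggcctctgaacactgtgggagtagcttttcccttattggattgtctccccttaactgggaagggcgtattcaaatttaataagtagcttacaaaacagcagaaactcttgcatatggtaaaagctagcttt
Gclm: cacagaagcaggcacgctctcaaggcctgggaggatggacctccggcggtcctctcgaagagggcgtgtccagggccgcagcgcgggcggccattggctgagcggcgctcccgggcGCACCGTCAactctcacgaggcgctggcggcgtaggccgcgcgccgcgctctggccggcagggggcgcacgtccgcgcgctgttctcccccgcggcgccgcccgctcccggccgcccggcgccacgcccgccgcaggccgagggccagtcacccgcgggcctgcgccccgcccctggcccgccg

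Genes of mitochondrial respiration, which osteoclasts raise, stayed under the threshold with LE. Of 40 tested respiratory chain genes, none was called in R+LE against -R, with log2 fold changes between -0.10 and 0.56 around a median of 0.28, while 11 had an adjusted p below 0.05, all of them higher (27.5%, beside 14.9% of all genes). In +R against -R, 13 were called higher, with a median of 0.82, and 36 had an adjusted p below 0.05 (23.1% of all genes were higher at this p). In R+LE against +R none was called at 2-fold, and 22 had an adjusted p below 0.05, all of them lower, with a median of -0.56, beside 6.26% of all genes. Atp5b, the catalytic chain of ATP synthase, was at 309 and 309.7 RPKM in -R, at 685 and 611 RPKM in +R and at 458 and 366 RPKM in R+LE. Of 21 tested genes of the tricarboxylic acid cycle, 1 was called higher in R+LE against -R, with a median of 0.33, beside 9 and a median of 0.96 in +R against -R. The 1 was Pcx, pyruvate carboxylase, which feeds the cycle and was at 0.619 and 0.675 RPKM in -R and 2.69 and 1.85 RPKM in R+LE, whereas Idh3a, a subunit of isocitrate dehydrogenase, was at 21.6 and 22.8 RPKM in -R, at 67.1 and 62.8 RPKM in +R and at 43.6 and 32.2 RPKM in R+LE. In R+LE against +R none of the 21 was called, and 15 were lower at an adjusted p below 0.05 (71.4%) and none higher. Of 24 tested genes of cholesterol synthesis, none was called in R+LE against -R, with a median of 0.32, beside 6 called higher and a median of 0.60 in +R against -R, and 10 had an adjusted p below 0.05 and a higher value by under 2-fold in R+LE (41.7%, beside 14.9% of all genes).

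Of 23 tested glycolysis genes, in R+LE against -R, Aldoc and Slc2a6 were called higher, and Hk2, Hk3, Pfkfb3 and Pfkfb4 lower. The median log2 change of the 23 was 0.37. At an adjusted p below 0.05 and any fold, 30.4% were higher and 17.4% lower, beside 14.9% and 19.3% of all genes. Of 17 tested genes of fatty acid synthesis, Acsl1 rose, from 7.96 and 8.99 to 26.7 and 25.9 RPKM, and Scd1 and Fads2 fell. Their median log2 change was 0.06, and at an adjusted p below 0.05 and any fold 11.8% were higher and 17.6% lower. Of 20 tested genes of ATF4 and one-carbon metabolism, Slc1a5, a glutamine transporter, rose, and Atf3, Slc3a2 and Ddit3 fell, and without R+LE replicate 2 the genes called higher were 3. In the fit to all 6 libraries, the median of these 20 genes in R+LE against -R was 0.18. At an adjusted p below 0.05 and any fold, 40% of them were higher and 35% lower. Atf3, a stress-induced transcription factor, was at 47.7 and 52.2 RPKM in -R, at 2.56 and 1.85 RPKM in +R and at 5.998 and 4.65 RPKM in R+LE. Of 7 tested serpins of clade B, 4 were called higher (1 without R+LE replicate 1), and of 8 tested genes of alternative activation, Arg1, Mrc1, Tgm2 and Il4ra fell. Of the 19 dendritic cell genes, 7 passed the filter, and Bst2, Cd83 and Kmo fell. Among 15 tested housekeeping genes, 2 were called lower, B2m among them, and Actb, the reference of the study's qRT-PCR, was at 2969 and 1968 RPKM in -R and 1861 and 1519 RPKM in R+LE, with a log2 fold change of -0.52 ± 0.25 (SE) that was not called. Rac2, a GTPase of the blood lineage, was at 53.9 and 56.3 and 72.2 and 59.8 RPKM.

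Over all genes tested, the R+LE libraries were closer to +R than to -R. The root mean square difference of log2(RPKM + 0.5) was 0.259 between the 2 -R libraries and 0.321 between the 2 R+LE libraries. Between an R+LE and a -R library it was between 0.712 and 0.719, between an R+LE and a +R library between 0.416 and 0.475, and between a +R and a -R library between 0.862 and 0.88. These distances are a description with no test.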

How the data were processed

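RNA of osteoclast precursors in 3 conditions, 2 libraries each, was analysed, with groups and replicate numbers as the sample labels give them. The authors deposited RPKM values, which they made by aligning reads to mm10 and counting exon reads of 1 transcript per gene with HOMER, on either strand (the column titles say FPKM). The methods name TopHat, whereas the submitters' processing notes list HISAT2 and DESeq2, without versions. Gene symbols that a spreadsheet had turned into dates, 26 in all, were restored from transcript identifiers. Every value column was used.

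Since RPKM is not a count, log2(RPKM + 0.5) was tested with limma 3.58.1 in R 4.3.3, with 3 group means over all 6 libraries and a variance trend. Benjamini-Hochberg adjustment ran over the 11547 genes that averaged 0.5 RPKM or more in the 4 R+LE and -R libraries, so genes seen only in +R do not enter. Genes seen only in R+LE or only in -R can enter through that group alone. The smallest two-sided p of an exact permutation test of 2 against 2 is 0.333, and calls therefore depend on the variance that limma shares between genes. Scripts were tested on simulated data.

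Whole reads were recovered from RPKM and transcript length, and 100.0% of the values checked in each library lay within 0.2 read of a whole number. Libraries of 1 group differed by more than counting noise (chi-square per gene between 13.7 and 31.1), so all were kept. Bounds on folds take 3 reads per library as what a count of 0 allows and cover counting error only.

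The members, gene lists and tests were chosen with earlier results of these data known. Named genes are the 12 largest rises and 12 largest falls among called genes on transcripts of at least 200 nt with groups apart, the 4 highest and 4 lowest called against both other conditions, genes the study names and list members, a few of which are not reported here. Lists are described by counts and medians beside all genes tested, with no set test. RefSeq promoters (GRCm38.p6) matched 8894 of the genes by symbol. Of the genes named, 25 have an exon that overlaps one on the other strand in the GENCODE annotation, by over 200 bases for Cdkn1a, Csf1r, Gadd45a, Icam1, Lpcat2, Nfkb2, Plekhm1, Slc4a2, Tap1, Tgm2 and Cavin3, and their reads cannot be told apart.

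Alternatives tried were other pseudocounts (0.1 and 1), the filter removed or raised to 1 RPKM, the 4 libraries alone, centring on the median, quantile normalization, Rn45s left out of the depth, no variance trend, a replicate block, voom on the recovered reads, transcripts under 200 nt left out, and each library left out. Tables and figures were made in Python 3.11.15 (pandas 2.3.3, numpy 2.4.6, matplotlib 3.10.9).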

Additional observations from a re-analysis of the deposited data

How the results depend on the processing

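The counts of genes that were called between R+LE and -R, 438 higher and 752 lower, stayed within 1.5 times of these values under all 18 other settings. The highest counts, 566 and 900, came from voom on the recovered reads and the lowest, 328 and 633, from a pseudocount of 1. Higher calls made up 36.8% of all calls, and between 34.1% and 42.7% of them over the other settings. Leaving out 1 library at a time gave 436 to 502 genes called higher and 746 to 827 called lower. The fit with the replicate number as a replicate block called 441 genes higher and 757 lower, among them all 1190 that were called without it, and changed the call of no gene named. Over genes, the deviations of same-numbered libraries from their group means had a correlation of -0.05 between -R and +R, 0.11 between -R and R+LE and 0.25 between +R and R+LE, and the labels do not say that a number marks a shared culture or day. Another scaling raised the log2 fold change of R+LE against -R by a median over genes of 0.054 (quantile normalization) to 0.072 (Rn45s left out of the depth).

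Of the 144 genes named that were called, 13 lost the call under at least 1 setting, and 5 genes that were not called gained one. Of the 28 list medians, 16 moved by more than the spread between replicates under at least 1 setting. No called gene named changed sign. The calls that hung on 1 library are as follows, as log2 fold changes without it, with adjusted p-values from limma. Without R+LE replicate 1, Traf2 (0.99, adjusted p = 0.000162), Cd83 (-0.89, adjusted p = 0.0166) and Hk2 (-0.96, adjusted p = 0.00052) lost the 2-fold size, whereas Id3 (-1.18), Csf1r (-1.06) and C5ar1 (-1.11) were called lower. Without R+LE replicate 2, Pcna (-0.91), Bcl2a1d (-0.94), Kmo (-0.91) and Il4ra (-0.94) lost it and Scd2 (-1.03) was called. Without -R replicate 1, Itga4 (0.92) and Il4ra (-0.85) lost it and C5ar1 (-1.1) was called, and without -R replicate 2, Bcl6 (-0.99), Gclc (-0.97) and Hk2 (-0.94) lost it. The sign turned for 4 genes that were not called. Esrra was at 0.01 with centring on the median and at 0.03 with quantile normalization or with Rn45s left out of the depth, and between -0.11 and 0.02 with 1 library left out. Slc4a2 was at 0.03, 0.09 and 0.05 under the same 3 scalings and between -0.07 and 0.02 with 1 library left out, Gclm between -0.34 and 0.09, and Tnfrsf11a between -0.06 and 0.11. The cause was not tested.

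With 2 libraries per condition and few residual degrees of freedom, genes near the 2-fold size or near 3 reads cannot be placed with certainty on either side of the threshold. RNA of the whole culture was measured, so a smaller share of a cell type and less RNA per cell cannot be told apart, and neither can the effect of RANKL and that of LE in R+LE against -R.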

Other observations

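Some called genes outside the lists, chosen after their values were seen, belong to the cell surface and its surroundings. Col4a5 and Col4a6, which encode further chains of type IV collagen, rose as Col4a1 and Col4a2 did. Col4a5 was at 1.22 and 1.02 RPKM in -R, at 16.1 and 13.4 RPKM in +R and at 13.3 and 14.9 RPKM in R+LE, and Col4a6 at 0.031 and 0.039, 2.74 and 1.84 and 1.34 and 2.08 RPKM. Unlike Col4a1 and Col4a2, neither was called in R+LE against +R (log2 fold changes -0.06 ± 0.15 and -0.34 ± 0.23, SE). Cav1, the coat protein of caveolae, was highest in R+LE, at 57.02 and 58.1 RPKM in -R, at 159 and 106 RPKM in +R and at 339.6 and 244 RPKM in R+LE, and its partner Cavin3 was at 0.533 and 0.534, 16.1 and 15.4 and 15.5 and 13.8 RPKM. Vegfc, a growth factor for lymphatic vessels, rose from 0.109 and 0.138 RPKM in -R to 7.48 and 8.37 RPKM in R+LE.

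Bcl2l1, which encodes the survival protein Bcl-xL, fell from 48.7 and 49.97 RPKM in -R to 8.55 and 6.97 RPKM in R+LE and was at 4.503 and 6.28 RPKM in +R, a log2 fold change of -2.6 ± 0.16 (SE) with LE. Slc9b2, a sodium and proton exchanger of osteoclasts that was not on the osteoclast list, was at 0.657 and 0.708 RPKM in -R, at 74.6 and 69.8 RPKM in +R and at 19.4 and 14.6 RPKM in R+LE, so that it lay between the other conditions.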
